A study of Mus musculus with 2 samples.

Results

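The 6 Iroquois homeobox genes, Irx1 to Irx6, were examined in total RNA sequencing of mouse embryonic limb. Members were taken by gene symbol, which GENCODE assigns to the deposited gene identifiers, and all 6 were found among the 43346 genes of the deposited tables. The series holds 2 libraries of a single group, biological replicates 1 and 2, so it contains no treated, mutant or control arm. Both are limb tissue of healthy B6NCrl embryos at age 11.5 day, with male and female embryos mixed and no allele or treatment named, and the labels give no split into forelimb and hindlimb. The tissue was pooled from 109 embryos for replicate 1 and from 88 for replicate 2, so each value is an average over many animals and over all cell types of the tissue. Fewer cells of a type and less RNA per cell cannot be told apart in such a pool. RNA longer than 200 nt was sequenced from 10 ng of input, with spike-in RNAs added. The libraries held 43.0 M and 35.1 M estimated reads, of which spike-ins took 5.37% and 7.92%.

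Iroquois proteins are transcription factors with a homeodomain of the TALE class, which has extra residues in the loop between its first helices, and with an Iro box further along the protein. In mammals their genes lie in a pair of clusters made by an ancient duplication. IrxA holds Irx1, Irx2 and Irx4, IrxB holds Irx3, Irx5 and Irx6, and each gene has a counterpart in the other cluster (Irx1 and Irx3, Irx2 and Irx5, Irx4 and Irx6). In limb, Irx3 and Irx5 are known together from mouse genetics to be needed in early progenitors for proximal and anterior hindlimb skeleton, and Irx1 and Irx2 are known from developing digits. Irx4 is best known from the ventricles of the heart.

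The homeobox is where the 6 genes are most alike, and it is shown first because reads from such stretches are the ones that quantification could assign to more than 1 member. Over the 63 codons where the reference proteins are most similar, 56 residues were the same in all 6. The 60 bases below, from the transcripts of GENCODE M21 on GRCm38, cover 20 codons that encode the same residues in every member. Capitals mark bases that differ from Irx3.
Irx3: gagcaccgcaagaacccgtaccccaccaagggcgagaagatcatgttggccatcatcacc
Irx5: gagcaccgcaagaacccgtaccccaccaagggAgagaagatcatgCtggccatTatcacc
Irx6: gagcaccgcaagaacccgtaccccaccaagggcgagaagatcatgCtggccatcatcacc
Irx1: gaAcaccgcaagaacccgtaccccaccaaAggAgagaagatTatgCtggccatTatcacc
Irx2: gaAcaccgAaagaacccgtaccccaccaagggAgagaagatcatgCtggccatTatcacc
Irx4: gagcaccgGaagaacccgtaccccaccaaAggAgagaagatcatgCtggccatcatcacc
The stretch lies in exon 2 of Irx3 at chr8:91800565-91800624 on the minus strand, in exon 2 of Irx5 at chr8:92359687-92359746 on the plus strand and in exon 4 of Irx6 at chr8:92677296-92677355 on the plus strand. In IrxA it lies in exon 2 of Irx1 at chr13:71960061-71960120 on the minus strand, in exon 2 of Irx2 at chr13:72630724-72630783 on the plus strand and in exon 5 of Irx4 at chr13:73267583-73267642 on the plus strand. Irx6 differed from Irx3 at 1 base, Irx5 at 3, Irx4 at 4, Irx2 at 5 and Irx1 at 6. All of these differences are silent.

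Across the 63 residues, the counterpart genes of both clusters were identical at 62 for Irx2 and Irx5 (98.4%), at 61 for Irx1 and Irx3 (96.8%) and at 59 for Irx4 and Irx6 (93.7%). The other pairs among the 15 ranged from 90.5% to 96.8%. The longest exact run shared by the leading transcripts of any pair was 88 nt and joined Irx3 and Irx6, where it continues the stretch shown above.
Irx3 and Irx6: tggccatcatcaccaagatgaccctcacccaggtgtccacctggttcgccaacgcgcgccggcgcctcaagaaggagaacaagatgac
This run lies at chr8:91800491-91800578 on the minus strand in Irx3 and at chr8:92677342-92677429 on the plus strand in Irx6. The deposited expected counts are estimates that can split such reads between genes in fractions. Counts were whole numbers in both libraries, to within 0.005, for 5 of the 6 members, Irx6 among them. The exception was Irx3, whose count became whole, 1278 and 728, when that of the antisense gene Irx3os was added.

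Levels of the family are given in TPM, a scale that corrects for transcript length and library size and so allows genes to be compared with each other. The pair Irx3 and Irx5 carried most of the family's RNA in limb, at 87.0% of the summed TPM of the 6 genes in replicate 1 and 77.3% in replicate 2 (82.1% ± 6.88, SD, n = 2). Irx4 and Irx2 followed at a few TPM, and Irx6 and Irx1 stayed under 1 TPM in both libraries. By the rule of at least 1 TPM in both libraries, 4 of the 6 members were detected, against a background of 56.3% of protein-coding genes. The median level of the members was 2.21 TPM, and that of all protein-coding genes was 3.02 TPM.

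**Figure D1:**
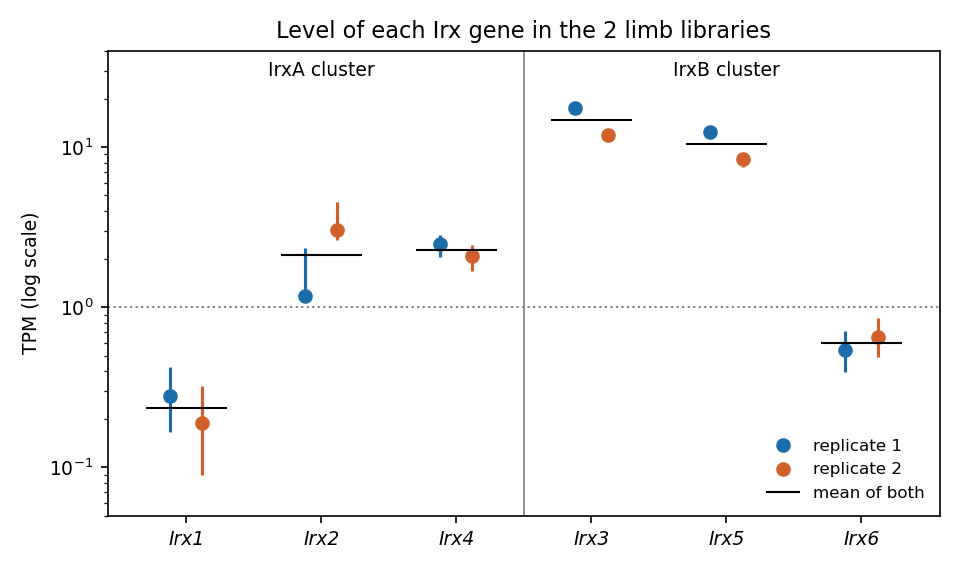
TPM of each Irx gene (log axis) in replicate 1 (blue) and replicate 2 (orange), with the mean of both as a black line, the deposited credibility bounds as vertical bars and the 1 TPM threshold dotted. Irx3 and Irx5 sit near and above 10 TPM, Irx2 and Irx4 between 1 and 4, and Irx6 and Irx1 below 1.

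Irx3 (ENSMUSG00000031734.12, chr8:91798525-91802067, minus strand) had the highest level of the family. Its TPM was 17.51 in replicate 1 and 11.99 in replicate 2 (14.8 ± 3.90, SD, n = 2), from 1231.94 and 700.96 expected counts. Of all protein-coding genes, 67.3% had a lower mean TPM. Replicate 1 was the higher library, and the credibility bounds that the authors deposited, 16.2 to 18.1 and 10.9 to 12.6 TPM, did not overlap.

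Irx5 (ENSMUSG00000031737.10, chr8:92357625-92376286, plus strand) was second, with 12.45 and 8.40 TPM in replicates 1 and 2 (10.4 ± 2.86, SD, n = 2) from 808 and 453 counts. Its single transcript in the tables lies, in the later version of GENCODE M21, at chr8:92357749-92361456. It too was higher in replicate 1. In each library Irx3 exceeded Irx5 by nearly the same factor, 1.41 in replicate 1 and 1.43 in replicate 2. The ranges of both genes across the libraries overlapped, so their order holds within each library but not across the pooled values.

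Irx6 (ENSMUSG00000031738.10, chr8:92674288-92680956, plus strand), the third gene of IrxB, was far below its cluster mates. It measured 0.54 TPM in replicate 1 and 0.65 in replicate 2 (0.595 ± 0.0778, SD, n = 2), from 46 and 49 counts. About the same number of reads thus stood behind it in both libraries.

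In IrxA, Irx4 (ENSMUSG00000021604.11, chr13:73260479-73269608, plus strand) had 2.48 and 2.10 TPM (2.29 ± 0.269, SD, n = 2) from 166 and 113 counts. Irx2 (ENSMUSG00000001504.10, chr13:72628820-72634198, plus strand) had a near equal mean with a far larger spread, 1.18 TPM in replicate 1 and 3.06 in replicate 2 (2.12 ± 1.33, SD, n = 2), from 80 and 110 counts. Irx1 (ENSMUSG00000060969.8, chr13:71957921-71963723, minus strand) was the lowest member at 0.28 and 0.19 TPM (0.235 ± 0.0636, SD, n = 2). It rested on 18 counts (95% Poisson interval 10.7 to 28.4) and 10 counts (4.8 to 18.4), intervals that cover counting error only.

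The order by mean TPM was Irx3, Irx5, Irx4, Irx2, Irx6, Irx1. Neighbours in this order were taken to differ when their library values did not overlap and the gap between means exceeded the sum of both SDs. The steps from Irx5 to Irx4 (4.55-fold), from Irx2 to Irx6 (3.56-fold) and from Irx6 to Irx1 (2.53-fold) met this. By this rule Irx3 and Irx5 did not differ beyond their spread, and neither did Irx4 and Irx2. The rule ignores that both genes of a step were measured in the same libraries, where Irx3 was 1.41 and 1.43 times Irx5. Irx4 was 2.10 times Irx2 in replicate 1 but 0.686 times Irx2 in replicate 2, so their order turned between the pools.

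By cluster, the 3 IrxB genes summed to 30.5 and 21.04 TPM (25.8 ± 6.69, SD, n = 2) and the 3 IrxA genes to 3.94 and 5.35 TPM (4.65 ± 0.997, SD, n = 2). IrxB therefore made up 88.6% of the family's TPM in replicate 1 and 79.7% in replicate 2. The ratio of IrxB to IrxA was 7.74 and 3.93, or a log2 ratio of 2.95 and 1.98 (2.46 ± 0.69, SD, n = 2). IrxB exceeded IrxA in both libraries, with the IrxB sum higher and the IrxA sum lower in replicate 1 than in replicate 2. The change in the IrxA sum came from Irx2 alone, as Irx1 and Irx4 were higher in replicate 1. Most of the Irx2 change lay in a noncoding transcript described below (0.08 and 1.29 TPM), and its full coding transcript had 1.10 and 1.37 TPM. The shift in the cluster ratio thus rests in part on that transcript. Among counterparts, Irx3 stood far above Irx1 and Irx5 above Irx2, whereas Irx6 of IrxB stood below Irx4 of IrxA.

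The 2 pools were then compared gene by gene, with an exact two-sided binomial test of each gene's counts against library sizes scaled by TMM, adjusted by the Benjamini-Hochberg method over the 16787 genes with at least 20 counts in total. This compares 2 libraries and not conditions, and the p-values measure counting error alone. All log2 ratios below are replicate 2 over replicate 1. A gene was called different where the adjusted p was under 0.05 and the log2 ratio was 1 or more in either direction, which 518 genes met, a background of 3.09%. None of the 6 members met both criteria. An unadjusted p under 0.05 in the exact binomial test was found for 3 of the 6, and for 6606 of the 16787 genes tested. With DESeq2 size factors the count was 0 as well.

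Irx3 and Irx5 were lower in replicate 2 by nearly the same amount. Irx3 had a log2 ratio of -0.50 (95% counting interval -0.63 to -0.36, exact binomial test, adjusted p = 9.71e-12) and Irx5 one of -0.52 (-0.69 to -0.35, adjusted p = 1.80e-08, same exact test). By adjusted p alone, lower values in replicate 2 had a background of 15.4% of genes tested. Few genes of a like level were as far down. Of 4054 genes between 5 and 20 TPM, 1.83% were lower in replicate 2 by as much as Irx3 and 1.70% by as much as Irx5, where the log2 ratios of these genes had an SD of 0.33. Scaled to spike-in totals instead, both genes passed the criterion for a called difference, with log2 ratios of -1.08 and -1.10, but that scaling moved the median of all genes by -0.59. Of the 16787 genes tested, 1430 then met the criterion, 1343 of them lower in replicate 2.

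Irx2 moved the other way. Its log2 ratio of 0.77 (95% counting interval 0.35 to 1.21, adjusted p = 0.00176 in the exact binomial test) was higher in replicate 2, against a background of 14.3% of genes higher by adjusted p alone. Among 3457 genes between 1 and 5 TPM, 3.01% were higher in replicate 2 by as much. Scaled to spike-ins the Irx2 log2 ratio was 0.19 (adjusted p = 0.419, exact binomial test), but that scaling moved the median of all genes by -0.59. Relative to the median of all genes, Irx2 was at 0.78 under both scalings.

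The other 3 members did not pass the exact test. Irx4 had a log2 ratio of -0.24 (adjusted p = 0.332, exact binomial test), with a 95% counting interval of -0.60 to 0.11. Irx1, at -0.50, had the same estimate as Irx3, but its 18 and 10 reads left an interval from -1.81 to 0.66 (adjusted p = 0.613, exact binomial test). For Irx6 the log2 ratio was 0.41 with TMM scaling (-0.20 to 1.02, adjusted p = 0.326, exact binomial test) and -0.18 with spike-in scaling, which lowered all genes alike. Relative to the median of all genes it was 0.41 under both. The median log2 ratio of the 6 members was -0.37, and that of all genes tested was -0.01.

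**Figure D2:**
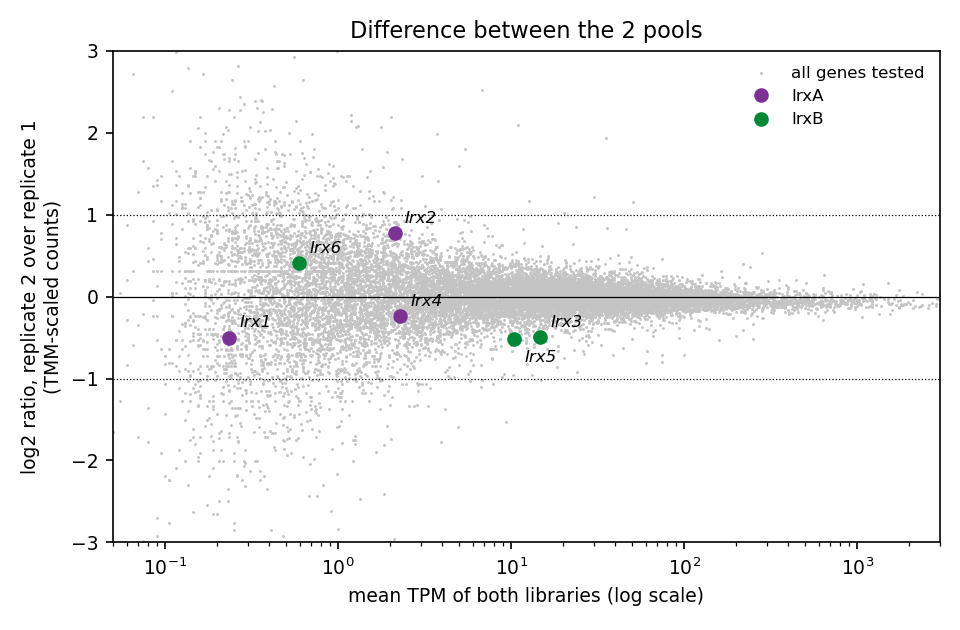
Log2 ratio of replicate 2 over replicate 1 (TMM-scaled counts) against mean TPM (log axis) for all genes tested (grey), IrxA genes (purple) and IrxB genes (green), with dotted lines at a log2 ratio of 1 in size and genes beyond 3 in size not drawn. Irx3 and Irx5 lie together at -0.50 and -0.52 below the bulk of genes at their level, and Irx2 lies above it at 0.77.

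The transcript tables gave each gene's RNA by isoform, as the percent of the gene's TPM. Irx1 and Irx5 had 1 transcript each in these tables. Irx3 was almost entirely ENSMUST00000175795.2, at 97.01% and 100%, with 16.99 and 11.99 TPM. The log2 ratio of this transcript between the pools was -0.45, against -0.50 for the whole gene. The other Irx3 transcript, ENSMUST00000093312.5, also coding, had 36.98 and 0 reads.

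Isoform shares of Irx2 differed between the libraries, by an amount that depends on the estimate. Its full coding transcript ENSMUST00000074372.5 held 93.46% of the gene's TPM in replicate 1 and 44.67% in replicate 2. By the posterior mean values, which were also deposited, it held 60% and 36.29%. In counts this transcript had 78.21 and 80.7 reads, a log2 ratio of 0.36 after TMM scaling, against 0.77 for the whole gene. The remaining 4 transcripts of the gene took 1.79 reads in replicate 1 and 29.3 in replicate 2.

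Most of those reads belonged to ENSMUST00000163393.1, a noncoding transcript of 927 nt annotated as a retained intron. It held 6.54% and 42.17% of the gene's TPM (7.96% and 36.31% by posterior means), at 0.08 and 1.29 TPM, and its deposited credibility bounds (0.0037 to 0.322 and 0.740 to 1.89) did not overlap. Its first 501 bases, chr13:72632085-72632585, are 81.5% of intron 3 of the coding transcript, and the other 426 are shared with the exons that follow. The end of the retained stretch is shown with the start of exon 4 in capitals, chr13:72632526-72632615 on the plus strand, where splicing of the coding transcript would remove the lower-case bases.
Irx2 intron 3 into exon 4: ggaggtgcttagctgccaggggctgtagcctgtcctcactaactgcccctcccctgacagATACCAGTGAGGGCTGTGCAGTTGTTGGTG
A shorter coding transcript, ENSMUST00000172353.2, took a further 0 and 4.33 reads (0% and 13.16% of the gene's TPM). By posterior means it held 11.59% and 16.04%, and its bounds of 4.51e-06 to 0.552 and 0.0383 to 1.21 TPM overlapped. The other 2 Irx2 transcripts were assigned no reads in either library, but had posterior mean shares between 4.64% and 12.62%.

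The deposited effective length of Irx2, an average over its transcripts weighted by their abundance, was 2414.94 nt in replicate 1 and 1538.07 nt in replicate 2. The log2 ratio of Irx2 was accordingly 1.37 in TPM and 0.77 in counts. On the coding transcript alone, Irx2 stood at 1.10 and 1.37 TPM, below Irx4 in both libraries.

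Irx4 had 2 transcripts with the same coding sequence of 1548 bases and different first exons. The form with the 175-nt first exon, ENSMUST00000176684.3, held 55.63% of the gene's TPM in replicate 1 and 91.35% in replicate 2, or 52.45% and 81.68% by posterior means. The form with the 380-nt first exon, ENSMUST00000022095.9, went from 1.10 to 0.18 TPM, with bounds of 0.583 to 1.82 and 0.00494 to 0.900 TPM that overlap. Only 18 bases are particular to the first form and 223 to the second, so few of the 166 and 113 reads could separate them.

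Irx6 also had 2 coding transcripts, of 1320 and 1317 coding bases. ENSMUST00000034185.8 held 58.94% and 88.27% of the gene's TPM and ENSMUST00000167261.2 held 41.06% and 11.73%, on 46 and 49 reads in all. The bounds of both transcripts overlapped between the libraries.

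**Figure D3:**
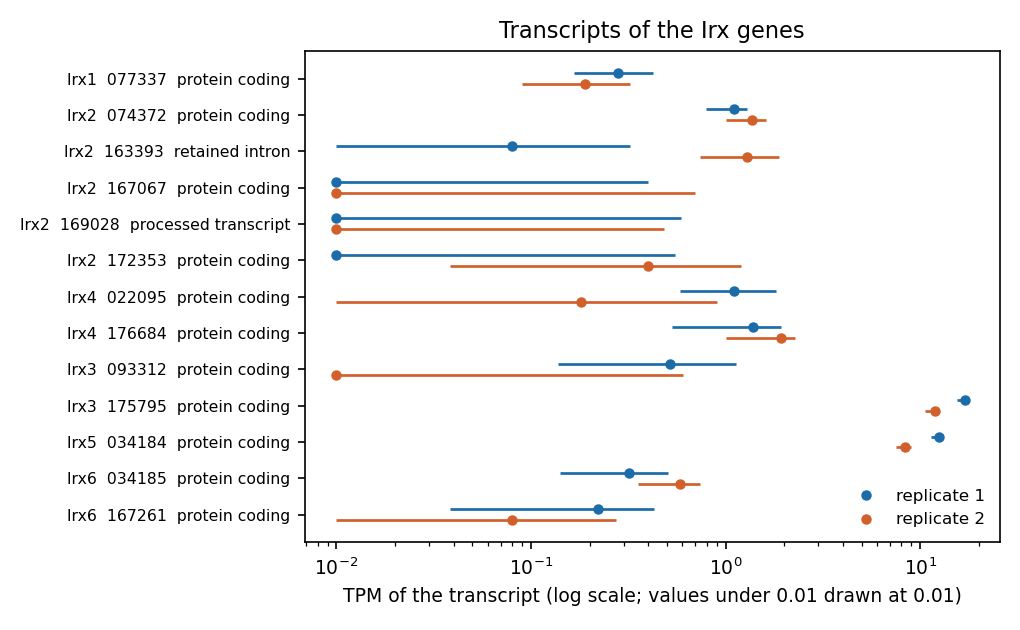
TPM of every Irx transcript in the deposited tables (log axis, values under 0.01 drawn at 0.01) in replicate 1 (blue) and replicate 2 (orange), with the deposited credibility bounds as bars and the identifiers shortened to their last 6 digits. The Irx2 retained-intron transcript is at 0.08 and 1.29 TPM with bounds that do not overlap, while those of the full coding Irx2 transcript, at 1.10 and 1.37, do.

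Both clusters are wide stretches with few other genes. IrxA spans 1311.69 kb of chromosome 13, with 665.096 kb between Irx1 and Irx2 and 626.28 kb between Irx2 and Irx4. IrxB spans 882.432 kb of chromosome 8, with 555.557 kb between Irx3 and Irx5 and 298.001 kb between Irx5 and Irx6. The annotation has no protein-coding gene in any of these 4 intervals. Of the other genes inside IrxA, 10 are annotated, 2 were in the deposited tables and none was detected. Inside IrxB 13 are annotated, 7 were in the tables, 5 had a read and 1, Crnde, was detected.

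Crnde, a long noncoding RNA gene, begins 1504 bp from Irx5 on the opposite strand. It measured 15.8 and 12.89 TPM (14.3 ± 2.06, SD, n = 2), a level like that of Irx3 and Irx5. Its log2 ratio was -0.21 (adjusted p = 0.239, exact binomial test), in the direction of Irx5 but without passing the test.

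Irx3os, annotated antisense to Irx3, had 0.79 and 0.55 TPM from 46.06 and 27.04 counts (log2 ratio -0.44, adjusted p = 0.398, exact binomial test). Irx3 and Irx3os share 124 exonic bases on opposite strands. The sources used here do not say whether counting used strand. The fractional counts of the 2 genes summed to whole numbers, 1278 and 728, so some reads were divided between them. Reads in the shared bases cannot be told apart, and the Irx3os value is uncertain. Irx6 shares 152 exonic bases with Gm45505 on the opposite strand, a gene for which the authors gave no value. Whether reads of Gm45505 entered the 46 and 49 counts of Irx6 was not tested.

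Irx2 has a divergent neighbour as well, the long noncoding RNA gene Gm20554, which starts 255 bp away on the minus strand. It had 3 and 6 counts (0.14 and 0.35 TPM). The nearest gene to Irx1 with a read in the deposited tables was the ribosomal protein pseudogene Rpl9-ps4, 491038 bp away, with 18.63 and 0 counts, a kind of gene whose reads can come from its parent gene. By the same rule the nearest genes to other members were the pseudogene Gm10263, 48235 bp from Irx4, the noncoding gene Gm28511, 63803 bp from Irx3 with 1 and 0 counts, and the pseudogene Gm3272, 34790 bp from Irx6.

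Outside the clusters, Fto lies 130085 bp from Irx3. Fto encodes an RNA demethylase, and its introns are known to hold regulatory elements that act on Irx3. It was higher than any Irx gene at 76.89 and 74.6 TPM (75.7 ± 1.62, SD, n = 2), with a log2 ratio of 0.01 (adjusted p = 0.693, exact binomial test). Beyond it, the cilium gene Rpgrip1l had 6.54 and 7.17 TPM and a log2 ratio of 0.32 (adjusted p = 5.25e-04, exact binomial test).

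Genes flanking the clusters were counted next. Within 1 Mb of IrxA, 11 of 18 protein-coding genes in the tables were detected, with a median of 23.8 TPM, and the highest was Ndufs6, a subunit of respiratory complex I, at 283 TPM. Around IrxB 7 of 18 were detected, with a median of 0.0425 TPM, and the highest was Mmp2, a secreted matrix protease, at 156 TPM. Of those 18, 9 are carboxylesterase genes of the Ces1 group and Ces5a, each at 0.025 TPM or less, and the other 9 had a median of 7.64 TPM.

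**Figure D4:**
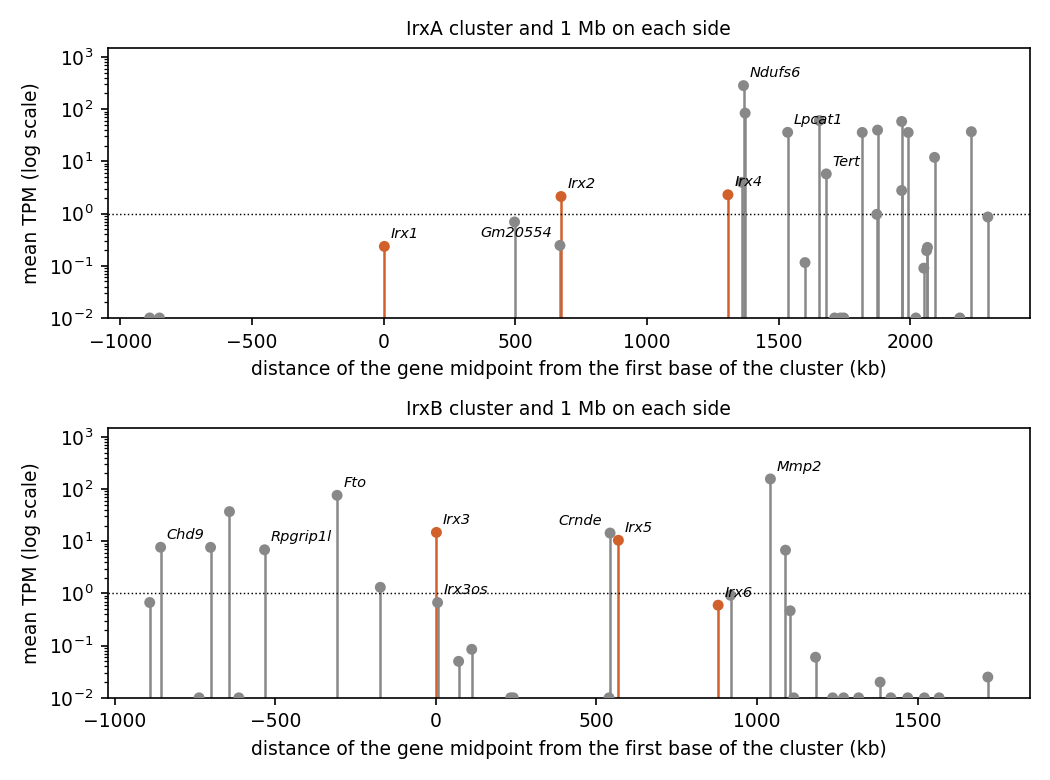
Mean TPM of both libraries (log axis, values under 0.01 drawn at 0.01) for the genes of the deposited tables within 1 Mb of IrxA (top) and IrxB (bottom), by distance of the gene's midpoint from the first base of the cluster, with Irx genes in orange and other genes in grey. No grey point within IrxA reaches the dotted line at 1 TPM, and within IrxB Crnde alone does.

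Iroquois proteins were set beside the rest of the TALE class. The 12 other TALE homeobox genes on the list, of the Meis, Pbx, Pknox, Tgif and Mkx families, were all detected, with a median of 26.6 TPM, above each of the 6 Irx genes. The highest were the repressors Tgif1 (80.2 ± 5.72 TPM, SD, n = 2) and Tgif2 (76.5 ± 3.75), then Meis1 (59.6 ± 5.51) and Meis2 (40.3 ± 0.509), cofactors of proximal limb identity. Mkx, the TALE gene nearest in sequence to the Iroquois family and a regulator of tendon, had 14.47 and 12.67 TPM (13.6 ± 1.27, SD, n = 2), close to Irx3.

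Between the pools the log2 ratios of these TALE genes ran from -0.19 to 0.24, and those of the 6 Irx genes from -0.52 to 0.77. None of the TALE genes was called, against a background of 3.09%. By adjusted p alone 2 were lower in replicate 2 (Pbx2 and Tgif1) and 1 higher (Meis1), against 15.4% and 14.3% of genes tested. Log2 ratios spread less at higher levels, with an SD of 0.14 from 20 to 100 TPM, 0.33 from 5 to 20 and 0.52 from 1 to 5. Whether the 2 groups of genes differ in their ratios was not tested.

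Limb patterning genes linked to Irx3 and Irx5 by genetics or by field of expression were all detected, 15 of 15, with a median of 11.2 TPM, which lies between Irx5 and Irx3. Gli3, the hedgehog effector that acts with Irx3 and Irx5 on anterior skeleton, had 32.62 and 31.2 TPM. Shh, the posterior ligand, had 1.00 and 1.04 TPM, its receptor Ptch1 16.66 and 16.12, its target Gli1 6.68 and 7.72 and its upstream regulator Hand2 22.66 and 23.57. The BMP antagonist Grem1 had 5.63 and 6.12 TPM and the ridge-inducing ligand Fgf10 10.28 and 11.7.

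Of the zinc-finger factors, Sall4 had 9.91 and 12.45 TPM, Sall1 24.06 and 22.28, and Zbtb16, needed for proximal hindlimb skeleton, 2.89 and 3.22. Tbx5 of the forelimb had 23.45 and 25.71 TPM, Tbx4 of the hindlimb 28.81 and 27.29 and Pitx1, also of the hindlimb, 154.78 and 114.25. The anterior factor Alx4 had 7.9 and 5.86 TPM and Pax9 2.98 and 2.32.

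None of the 15 was called, against 3.09% of all genes. Without the minimum log2 ratio, 15.4% of genes tested were lower in replicate 2 and 14.3% higher. By adjusted p alone in the exact binomial test, 3 were lower in replicate 2, namely Alx4 (log2 ratio -0.39, adjusted p = 2.70e-07), Pitx1 (-0.38, adjusted p = 1.71e-53) and Gli3 (-0.09, adjusted p = 0.00948). Higher in replicate 2 were 4, Gli1 (0.26, adjusted p = 0.00702), Fgf10 (0.23, adjusted p = 9.38e-04), Sall4 (0.23, adjusted p = 0.00177) and Tbx5 (0.18, adjusted p = 1.40e-04), also by the exact test. The median log2 ratio of the 15 was 0.11. Irx3 and Irx5 at -0.50 and -0.52 were thus lower than each gene of this list, and Irx2 at 0.77 was higher than each.

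**Figure D5:**
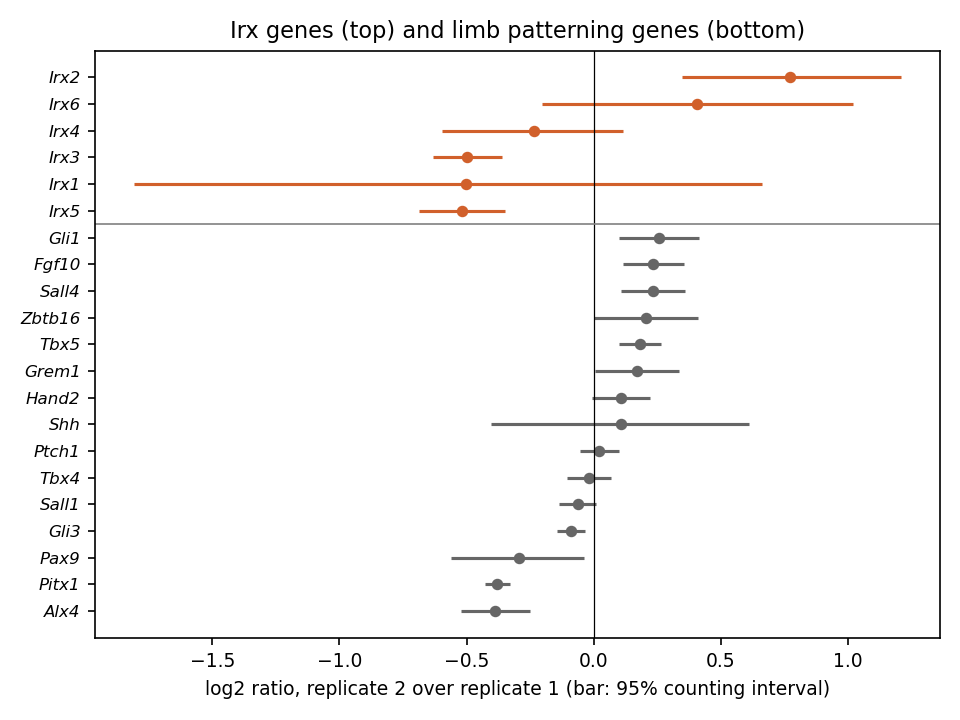
Log2 ratio of replicate 2 over replicate 1 (TMM-scaled counts) for the 6 Irx genes (orange, top) and the 15 limb patterning genes (grey, bottom), with 95% counting intervals as bars. Irx3 and Irx5 have narrow intervals below 0, Irx2 lies above 0, and the intervals of Irx1, Irx4 and Irx6 include 0.

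Markers of the tissue and of cells it could hold were read beside these values. All 8 limb mesenchyme markers were detected, led by Msx1, Prrx1, Pitx1 and Lhx9, with a list median of 64.3 TPM, and all 4 muscle markers (Actc1, Myog, Myod1 and Pax3), with a median of 20.5 TPM. All 6 ectoderm markers were present as well, with a median of 23.7 TPM and a summed level of 135.18 and 136.25 TPM. The log2 ratio of that sum was 0.01, against -0.09 for the summed TPM of all genes. By adjusted p alone 3 of the ectoderm markers were higher in replicate 2, against a background of 14.3% of genes tested. They were Krt5 by a log2 ratio of 0.44, Trp63 by 0.37 and Epcam by 0.14. The most abundant ectoderm markers, Krt14 and Fgf8, had log2 ratios of -0.12 and -0.14, and Wnt7a 0.02, none of which passed. The part of ectoderm in the Irx2 value was not tested.

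Cartilage markers were detected for 4 of 5 genes (Col2a1, Sox9, Col9a1 and Matn1, list median 61.4 TPM) and joint markers for 2 of 4 (median 3.13 TPM). Summed joint markers were 25.18 and 21.65 TPM, a log2 ratio of -0.22, against -0.09 for the summed TPM of all genes. Of the joint markers, Gdf5 (log2 ratio -0.39) and Wnt9a (-0.78) were lower in replicate 2 and Erg (0.44) was higher, each by adjusted p alone. Gdf6 (-0.35) did not pass. The background by that rule was 15.4% of genes tested lower and 14.3% higher. The part of joint cells in the lower Irx3 and Irx5 values was not tested.

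Heart ventricle markers bear on Irx4, and heart also expresses Irx3 and Irx5. Their summed level was 10.39 TPM in replicate 1 and 3.67 TPM in replicate 2, and 1 of the 6, Tnni3, was detected. All 4 of the called genes among the 5 tested, Myh7, Myl2, Myl3 and Nppa, were lower in replicate 2, Myl2 with 41 and 2 counts. Of all genes tested, 3.09% were called. The defining regulator Nkx2-5 had 0 and 4 counts. The part of heart tissue in the Irx values was not tested. Spinal cord markers, relevant because Irx3 and Irx5 are also known from neural tube, summed to 0.11 and 0.27 TPM. Pax6 had 5 and 7 counts, Nkx6-1 had 1 and 4, Sox1 had 0 and 2, and Olig2 had 0 in both libraries.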

How the data were processed

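The authors deposited gene and transcript tables for each of the 2 limb libraries of total RNA. Per the file headers, reads were quantified on mm10 with GENCODE M4, in columns named as by RSEM. Not given in the sources used here are the aligner, the versions and the use of strand. The deposited expected counts are estimated reads, not normalised. The authors' TPM and FPKM are scaled over every entry, including spike-ins, and use an effective length that is 99 nt shorter than the transcript. Spike-ins took 11.8% of TPM in replicate 1 and 17.2% in replicate 2. The authors' isoform values are the percent of a gene's TPM. At which level the deposited credibility bounds were set was not found in the labels or headers, and those of Irx2 barely contain its TPM in replicate 1. Of 69691 entries, 97 were spike-ins and 26248 carried only a number (6.29e-05% and 4.76e-05% of counts). Library sizes and tests used neither kind.

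GENCODE M21 on GRCm38 supplied symbols, coordinates and transcript sequences. It matched 42462 gene identifiers and not 884. The leading transcripts of Irx3, Irx4, Irx5 and Irx6 carry a later version there than in the deposited values. Lengths changed for Irx3 (2597 to 2748 nt) and Irx5 (2403 to 2450 nt). Expected counts were rounded for the test. TMM in edgeR 4.0.16 gave library sizes of 40.4 M and 32.5 M reads. With a single group there was no contrast for a quasi-likelihood fit. The exact binomial test (scipy 1.17.1), with a prior count of 0.5 in log2 ratios, was tested on simulated data, where it recovered 90.5% of 200 genes changed 4-fold among 16771. It also called 2 unchanged genes. The simulated counts had Poisson error alone, so they cannot show how the test behaves when pools vary beyond counting error. Nothing in the labels says how embryos were divided between pools, so a difference between them may be technical. The p-values cover counting error alone. Counting intervals are exact, at 95%.

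Named were all members, their transcripts at 5% or more of the gene's TPM, overlapping and nearest genes, the 4 highest genes of each list with Mkx, and every limb patterning gene. Krt5, Wnt7a, Myh7, Nkx2-5, Pbx2, Mmp2 and Ndufs6 were named after their values were seen, as were the carboxylesterases. Members, lists and rules were chosen with earlier results of these data known. Alternatives used DESeq2 1.42.0 size factors, raw or spike-in totals, other thresholds, the deposited posterior mean values and FPKM, and left out each library in turn.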

Additional observations from a re-analysis of the deposited data

How the results depend on the processing

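Of the 16787 genes tested, 518 were called different between the pools. That number became 1430 with spike-in totals as library sizes and 4975 with no minimum log2 ratio, of the same 16787. With spike-in totals 6.08% of the calls were higher in replicate 2, against 48.1% with TMM. The members called, 0 in the reported setting, became 2 with spike-in totals (Irx3 and Irx5) and 3 with no minimum (Irx2 also). Irx6 went from a log2 ratio of 0.41 to -0.18 with spike-in totals, a scaling that moved the median of all genes by -0.59, and relative to that median it was 0.41 in both. By posterior means the mean share of the leading Irx2 transcript was 48.1% in place of 69.1%. DESeq2 size factors gave 516 calls, raw totals 518, posterior mean counts 485 and no filter 711, with no member among them. The count of 4 members detected became 3 at 2 TPM or by FPKM and 5 at 0.5 TPM, and stayed 4 without replicate 1 or 2. The log2 ratio of IrxB over IrxA, 2.46, ran from 1.98 to 2.95 when a library was left out and from 2.23 to 2.51 otherwise. Taken from deposited TPM, a choice made after seeing the data, the log2 ratio of Irx2 was 1.37 in place of 0.77. Rescaling TPM over genes alone raised the mean of all 6 members. Irx3 rose to 17.2, Irx5 to 12.1, Irx4 to 2.67, Irx2 to 2.52, Irx6 to 0.698 and Irx1 to 0.273. For Irx4 and Irx6 alone the rise exceeded the SD between the libraries. No paired analysis between groups was possible because the series has 1 group. Depth limits Irx1 and Irx6 most, at 10 to 49 reads per library.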
